A study of Mus musculus with 10 samples.

Results

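Apolipoproteins are the protein parts of the particles that carry lipid in blood, and the measurements here follow their genes in the liver of mice heterozygous for a knockout of Tgfbr2, which encodes the TGF-beta type II receptor. The genes were chosen by name, without use of measured values: Apoa1, Apoa2, Apoa4, Apoa5, Apob, Apoc1, Apoc3, Apoe, Apom and Apoh. A probe is annotated to 6 of these 10 genes, each gene having 1 probe, out of 16383 genes measured in all. Apoa2, Apoc1, Apoe and Apoh were not analysed here.

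The data hold 10 libraries of liver RNA on 2-colour oligonucleotide arrays, 6 of Tgfbr2+/- mice and 4 of wild-type littermates, both on chow. Each library is a ratio against 1 pool of RNA from the livers of 6 wild-type mice. The Tgfbr2+/- titles say that the mice were male, and the wild-type titles give no sex. Age, strain background, the part of Tgfbr2 that was removed and whether the wild-type mice are also in the pool are not given in the sources used here, and the labels name no promoter or Cre that would limit the knockout to a cell type. Each library was taken as a separate mouse.

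The liver makes most plasma apolipoproteins. Those with a B protein form the scaffold of very low density lipoprotein, those of the A group ride mostly on high density lipoprotein and chylomicrons, and several of the A and C proteins switch the lipases of plasma on or off. Apoa1, Apoc3, Apoa4 and Apoa5 lie next to each other, in this order, on chromosome 9 of the mouse, and Apob (chromosome 12) and Apom (chromosome 17) lie apart.

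All values are log2 ratios of a liver over the pool, and a difference is the Tgfbr2+/- mean minus the wild-type mean, so a difference of 1 would be a doubling. A ratio gives no level, so the genes cannot be ordered by abundance. The direction was taken to be liver over pool. The titles name the pool before the liver, which does not settle it. With this direction Tgfbr2 was lower in the heterozygous libraries, as given below. Were the direction the reverse in all columns, every ratio and difference given here would turn in sign, and the correlations would not. Over all probes, the libraries correlated at a Pearson r of -0.325 to 0.519. Wild-type replicate 1 and Tgfbr2+/- replicate 5 were the pair at -0.325. Whether either column is reversed was not tested. As deposited, Tgfbr2 was at 0.23 in wild-type replicate 1 and at -0.49 in Tgfbr2+/- replicate 5, each on the side of its group mean. The male-biased gene Moxd1 was at -4.84 ± 0.24 (SD, n = 4) in wild type, replicate 1 included. In Tgfbr2+/- it was at -1.66 ± 2.84 (SD, n = 6), with 5 of the 6 above all wild-type livers. What sets Moxd1 this far from the pool was not tested. The difference of each of the 6 apolipoprotein genes is given also with each column of this pair turned in sign. All other values are for the columns as deposited. Tgfbr2 itself, the mean of its probes, was lower by 0.47 ± 0.12 (SE) in the heterozygous libraries (limma adjusted p = 0.516 over all genes, exact permutation p = 0.0143). Wild-type livers spanned -0.07 to 0.37, which takes in the library labelled Tgfbr2+/- replicate 4 at 0.05, and the other 5 lay between -0.50 and -0.18.

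The promoters of the chromosome 9 neighbours are shown because these genes hold both the lowest difference between the groups, that of Apoa5, and the widest spread over livers, that of Apoa4. Apoc3, the remaining neighbour, had no promoter window in the sources used here and is not shown. The windows are RefSeq sequence of build GRCm38.p6 and cover the 250 bases before the annotated start, on the + strand, for Apoa1 at chr9:46228380-46228629, for Apoa4 at chr9:46240594-46240843 and for Apoa5 at chr9:46268358-46268607. Capitals mark matches on either strand to TGTTTGC, a forkhead factor motif, to TATAAA, the TATA box, and to CAGAC, the short motif that SMAD proteins, the transcription factors downstream of TGF-beta receptors, are known to bind.
Apoa1: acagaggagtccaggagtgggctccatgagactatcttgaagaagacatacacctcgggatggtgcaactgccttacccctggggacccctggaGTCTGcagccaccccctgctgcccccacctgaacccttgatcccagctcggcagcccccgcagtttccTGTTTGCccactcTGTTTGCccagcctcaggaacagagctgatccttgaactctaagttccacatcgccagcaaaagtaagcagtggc
Apoa4: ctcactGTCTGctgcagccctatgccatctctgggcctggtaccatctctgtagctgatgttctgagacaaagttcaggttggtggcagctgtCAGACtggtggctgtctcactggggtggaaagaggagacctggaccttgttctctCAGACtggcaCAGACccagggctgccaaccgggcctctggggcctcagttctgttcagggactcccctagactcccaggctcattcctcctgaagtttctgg
Apoa5: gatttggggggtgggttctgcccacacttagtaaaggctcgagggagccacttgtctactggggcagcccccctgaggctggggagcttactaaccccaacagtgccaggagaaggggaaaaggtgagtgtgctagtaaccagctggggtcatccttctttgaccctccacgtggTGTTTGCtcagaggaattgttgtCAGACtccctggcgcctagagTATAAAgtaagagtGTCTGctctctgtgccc

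Apoa1 holds the forkhead letters at positions -88 and -75, counted back from the start, and Apoa5 holds them at -75. Apob, at chr12:7977427-7977676 on the + strand, has them on the opposite strand at -121. Of 32851 promoter windows of this length 4.30% hold the forkhead letters. The TATA box letters stood at -31 in Apoa5 and at -60 in Apob, and in 12.4% of all windows. CAGAC occurred at 4 positions in Apoa4 (-244, -157, -102 and -92), at -52 and -17 in Apoa5 and at -156 in Apoa1. So short a motif stood at least once in 42.2% of all windows, and the share of windows with several matches was not counted. No match overlapped another. The window of Apom, at chr17:35131802-35132051 on the - strand, held none of these letters, and AGGTCA, the core letters of nuclear receptor sites, was in none of the 5 windows and in 14% of all. A match is a run of letters and not a measured binding site.

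No apolipoprotein gene passed the test between the groups. By limma, 0 of the 6 measured genes had an adjusted p under 0.05, as did 0% of all 16383 genes. At an unadjusted p under 0.05 there was 1 of 6, Apoa5, against 908 genes or 5.54% of all. In 0 of the 6 did the groups not overlap, against 1.08% of all genes, and 3 of 6 differences were above 0, against 52.6% of all. The median difference of the 6 genes was -0.01 and that of all genes 0.0044. The median size of the difference, sign aside, was 0.117 for the 6 genes and 0.0505 for all genes, and their median SD over the 10 libraries was 0.17 against 0.11. The 6 genes thus differed more from liver to liver than the middle gene of the array.

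**Figure D1:**
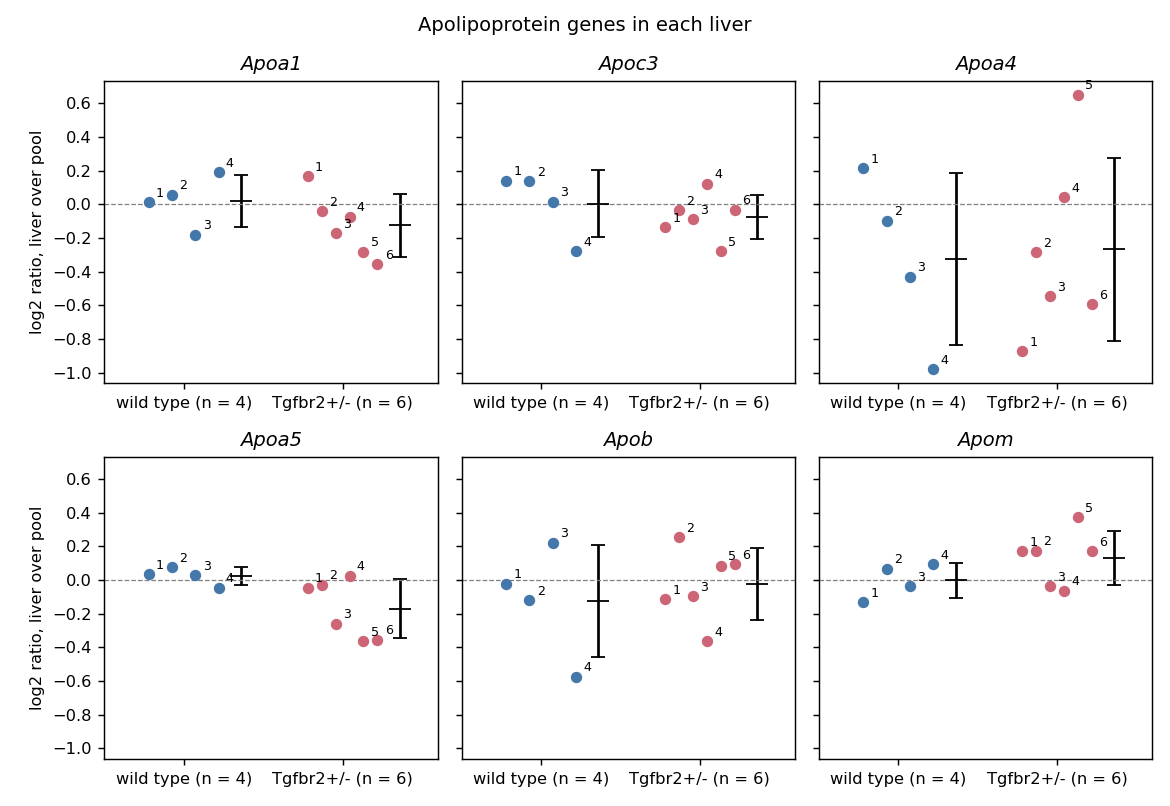
Log2 ratio of liver over pool for the 6 measured apolipoprotein genes. Each point is a library with its replicate number, in blue for wild type (n = 4) and red for Tgfbr2+/- (n = 6), bars are mean ± SD, and the dashed line is the pool. The groups overlap for every gene, Apoa4 spans the widest range, and Tgfbr2+/- replicates 3, 5 and 6 lie below all wild-type libraries for Apoa5.

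Apoa5 encodes the activator of triglyceride hydrolysis by lipoprotein lipase in plasma. Its log2 ratios in wild-type replicates 1 to 4 were 0.04, 0.08, 0.03 and -0.05, and in Tgfbr2+/- replicates 1 to 6 they were -0.04, -0.03, -0.26, 0.03, -0.36 and -0.36. The wild-type livers sat close to the pool. Tgfbr2+/- replicates 3, 5 and 6 lay below every wild-type liver and replicates 1, 2 and 4 lay among them. The means were 0.02 ± 0.05 (SD, n = 4) and -0.17 ± 0.18 (SD, n = 6), a difference of -0.19 ± 0.08 (SE), or 1.14-fold lower, with a 95% interval from -0.38 to -0.0076. It did not pass over all genes (limma adjusted p = 0.894), its unadjusted limma p was 0.0428 and its exact permutation p was 0.0619, two-sided, where 210 groupings of the libraries allow no less than 0.0048. The difference was -0.18 with wild-type replicate 1 turned in sign and -0.07 with Tgfbr2+/- replicate 5 turned, and its unadjusted limma p was over 0.05 in both cases. Leaving out single wild-type livers, that p was 0.0804 without replicate 1, 0.0973 without replicate 2 and 0.0765 without replicate 3. Leaving out single heterozygous livers, it was 0.0794 without replicate 3 and 0.0807 without replicate 5 or 6. It stayed under 0.05 without the others, at 0.0468 without wild-type replicate 4 and at 0.0320, 0.0276 and 0.0157 without Tgfbr2+/- replicate 1, 2 or 4, the last with a difference of -0.23.

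Apoc3 encodes an inhibitor of lipoprotein lipase and of remnant uptake. Its wild-type values were 0.14, 0.14, 0.02 and -0.28, and its Tgfbr2+/- values were -0.14, -0.03, -0.09, 0.12, -0.28 and -0.03. Tgfbr2+/- replicate 5 was the lowest, wild-type replicate 4 lay next to it, and the heterozygous range lay almost wholly within that of wild type. The means were 0.005 ± 0.20 (SD, n = 4) and -0.07 ± 0.13 (SD, n = 6), and the difference was -0.08 ± 0.09 (SE, limma adjusted p = 0.937, exact permutation p = 0.438), with an interval from -0.29 to 0.13. With wild-type replicate 1 turned in sign it was -0.0092 and with Tgfbr2+/- replicate 5 turned it was 0.01, so its direction is not settled. Leaving out wild-type replicate 4 gave -0.17, leaving out wild-type replicate 1 or 2 gave -0.03 each, and leaving out Tgfbr2+/- replicate 5 gave -0.04. The activator of lipoprotein lipase, Apoc2, which is not among the 10 genes and is measured in the list of other apolipoproteins, differed by 0.04 ± 0.10 (SE).

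Apoa1 encodes the main protein of high density lipoprotein and the activator of the cholesterol-esterifying enzyme LCAT. The wild-type values were 0.01, 0.06, -0.18 and 0.19 and the Tgfbr2+/- values 0.17, -0.04, -0.17, -0.07, -0.28 and -0.35. Tgfbr2+/- replicates 5 and 6 lay below all wild-type livers, and the other 4 lay among them. Means of 0.02 ± 0.15 (SD, n = 4) and -0.13 ± 0.19 (SD, n = 6) gave a difference of -0.14 ± 0.10 (SE, limma adjusted p = 0.920, exact permutation p = 0.248). The 95% interval ran from -0.37 to 0.08, that is, from 1.29-fold lower to 1.06-fold higher. It was -0.14 with wild-type replicate 1 turned and -0.05 with Tgfbr2+/- replicate 5 turned, and -0.04 with array weights. Leaving out 1 liver it ran from -0.21 without wild-type replicate 3 to -0.09 without wild-type replicate 4, and its unadjusted limma p was under 0.05 only without Tgfbr2+/- replicate 1, where the difference was -0.20.

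Apoa4 encodes a protein of chylomicrons and high density lipoprotein, made mainly in intestine and, in mice, also in liver. Its values were 0.21, -0.10, -0.43 and -0.98 in wild type and -0.87, -0.28, -0.55, 0.04, 0.65 and -0.59 in Tgfbr2+/-. Both groups spread over most of the range, from wild-type replicate 4 at the bottom to Tgfbr2+/- replicate 5 at the top, which differ by 1.63 on the log2 scale or 3.10-fold. The SD over the 10 livers, 0.50, was higher than that of 98.9% of all genes. The group means were -0.32 ± 0.51 (SD, n = 4) and -0.27 ± 0.55 (SD, n = 6). The difference of 0.06 ± 0.30 (SE, limma adjusted p = 0.990, exact permutation p = 0.881) had an interval from 1.51-fold lower to 1.63-fold higher, so these libraries leave a wide range of group differences for this gene. It was 0.16 with wild-type replicate 1 turned and -0.16 with Tgfbr2+/- replicate 5 turned, and it was -0.16 without wild-type replicate 4, -0.0062 without Tgfbr2+/- replicate 4 and -0.13 without Tgfbr2+/- replicate 5, so its direction is not settled.

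Apob encodes the scaffold protein of very low density lipoprotein and chylomicrons. Wild-type livers had -0.02, -0.12, 0.22 and -0.57 and Tgfbr2+/- livers had -0.11, 0.26, -0.10, -0.36, 0.09 and 0.10. Wild-type replicate 4 was the lowest of all 10. The means were -0.12 ± 0.33 (SD, n = 4) and -0.02 ± 0.22 (SD, n = 6), and the difference was 0.10 ± 0.15 (SE, limma adjusted p = 0.951, exact permutation p = 0.571; interval -0.23 to 0.43). It was 0.09 on turning wild-type replicate 1 and 0.07 on turning Tgfbr2+/- replicate 5, and -0.05 without wild-type replicate 4.

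Apom encodes the carrier of sphingosine 1-phosphate on high density lipoprotein. Wild-type livers had -0.13, 0.07, -0.04 and 0.09, and Tgfbr2+/- livers had 0.17, 0.17, -0.04, -0.06, 0.37 and 0.17. Tgfbr2+/- replicates 1, 2, 5 and 6 lay above all wild-type livers and replicates 3 and 4 among them. The means were -0.002 ± 0.10 (SD, n = 4) and 0.13 ± 0.16 (SD, n = 6). The difference was 0.13 ± 0.08 (SE, limma adjusted p = 0.919, exact permutation p = 0.190), or 1.10-fold higher, with an interval from -0.05 to 0.32. It was 0.07 with wild-type replicate 1 turned and 0.0085 with Tgfbr2+/- replicate 5 turned. Leaving out 1 liver it ran from 0.08 without Tgfbr2+/- replicate 5 to 0.17 without Tgfbr2+/- replicate 4.

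**Figure D2:**
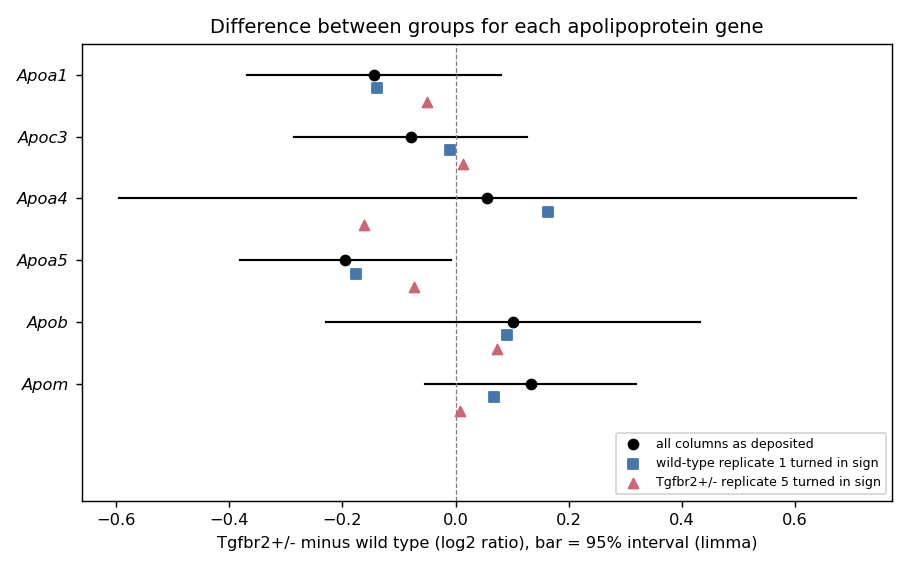
Difference between the groups for each measured apolipoprotein gene, Tgfbr2+/- minus wild type in log2 ratio. Circles are the columns as deposited with the 95% interval of limma, squares show it after turning the sign of wild-type replicate 1, and triangles after turning that of Tgfbr2+/- replicate 5. Apoa1, Apoa5, Apob and Apom stay on their side of 0 under both turns, Apoa4 and Apoc3 change side with Tgfbr2+/- replicate 5 turned, and the interval of Apoa4 is the widest.

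Compared with the pool alone, the heterozygous mean of Apoa5 was -0.17 ± 0.05 (SE, limma adjusted p = 0.192) and that of Apom 0.13 ± 0.05 (SE, limma adjusted p = 0.240). These were 2 of 6 genes at an unadjusted p under 0.05, where 18.3% of all genes were. At an adjusted p under 0.05 there were 0 of 6, against 0.0122% of all genes. For the wild-type mean against the pool 0 of 6 passed either way, against 0% of all genes adjusted and 4.14% (678 genes) unadjusted by limma. This test leaves out the spread of the pool itself, and it shares the heterozygous libraries with the comparison of the groups.

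Single livers held the lowest or highest values of several of these genes at once. Dixon's test for an outlying value, run for each gene in each group, flagged 0 of 12 sets. Wild-type replicate 4 had the lowest wild-type values of Apoa4, Apoa5, Apob and Apoc3 and the highest of Apoa1 and Apom. Its mean over 14 genes of the fasting response was -0.40, against 0.12, 0.30 and 0.17 in the other wild-type livers and -0.35, -0.31, 0.03, -0.30, -0.33 and -0.30 in the heterozygous ones. Tgfbr2+/- replicate 5 had the highest Apoa4 and Apom and the lowest Apoa5 and Apoc3 of all 10 livers, and its mean over 14 acute phase genes was 0.71, against -0.89 to -0.01 in the other heterozygous livers and -0.93 to -0.49 in wild type. The part of feeding state or of an acute phase response in the apolipoprotein values was not tested. Of the fasting genes 11 of 14 had negative differences (median -0.14), 1 of them, Cyp4a14 (-0.48 ± 0.12, limma adjusted p = 0.468), at an unadjusted p under 0.05. Cyp4a14 is also in the list of female-biased liver genes given below, so the 2 lists are not separate on this gene. All 14 acute phase genes had positive differences (median 0.18), with Hpx, the heme carrier, at 0.36 ± 0.15 (limma adjusted p = 0.881) the 1 at an unadjusted p under 0.05. Clock genes had a median of -0.01, with 6 of 15 positive.

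In RNA of whole liver fewer cells of a type and less RNA per cell cannot be told apart. Hepatocyte markers, of which 7 of 14 were measured, had a median difference of 0.003, with library means from -0.13 to 0.10 in wild type and -0.12 to 0.04 in Tgfbr2+/-. Kupffer cell and macrophage markers had positive differences for 12 of 14 measured genes, 10 of them at an unadjusted p under 0.05 by limma and 0 adjusted, with a median of 0.33. Their library means ran from -0.22 to -0.10 in wild type and from -0.02 to 0.26 in Tgfbr2+/-, without overlap. Female-biased liver genes had a median of -0.44 (11 of 12 negative, 6 at an unadjusted p under 0.05 by limma) and male-biased genes one of 0.39 (6 of 8 positive, 4 at an unadjusted p under 0.05), with 0 of either list passing over all genes. Of 4 Y-linked genes 2 were measured, Kdm5d at -0.08 ± 0.10 and Uty at 0.04 ± 0.08 (SE). Intestinal epithelium is the other main source of Apoa4 and Apob. The library means of 11 of its markers ranged from -0.03 to 0.09 in wild type and from -0.02 to 0.11 in Tgfbr2+/-. The differences of the single markers ran from -0.26 to 0.24, with 7 positive, 4 negative and a median of 0.09, and 0 were at an unadjusted p under 0.05 by limma. Whether these shifts have a part in the apolipoprotein values was not tested, and ratios cannot show whether a marker is absent.

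Over the 10 livers the 6 genes form 15 pairs, and no correlation between 2 of them passed after adjustment over the 15 pairs (smallest adjusted p = 0.206 for Pearson's r). Apoa1 and Apoa5, the outer genes of the chromosome 9 cluster, had an r of 0.70 (permutation p = 0.0275, adjusted p = 0.206) and a Spearman rho of 0.44 (permutation p = 0.203, adjusted p = 0.608). Their r was 0.63 on deviations from the group means, and 0.65 or 0.26 without the 2 livers farthest from the median of Apoa1 or of Apoa5. The correlation of this pair therefore rests on the livers lowest in Apoa5. Apoa5 and Apoc3 had an r of 0.57 (permutation p = 0.0811, adjusted p = 0.243) and a rho of 0.82 (permutation p = 0.00563, adjusted p = 0.0845). Without the 2 livers farthest from the median of Apoa5 or of Apoc3 that r was 0.54 or 0.59, and without Tgfbr2+/- replicate 5 it was 0.39. Apoc3 and Apom, on different chromosomes, ran opposite, with an r of -0.69 (permutation p = 0.0267, adjusted p = 0.206) and a rho of -0.69 (permutation p = 0.0308, adjusted p = 0.222), and -0.59 or -0.38 without the 2 livers farthest on Apoc3 or on Apom. The 6 pairs within the cluster had a median r of 0.12 and a range from -0.40 to 0.70, and the other 9 pairs a median of -0.22 and a range from -0.69 to 0.31. All livers share the pool.

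Apoa4 and Apoc3, direct neighbours, had an r of 0.25 (permutation p = 0.484, adjusted p = 0.738) and a rho of 0.38 (permutation p = 0.279, adjusted p = 0.659). In 9 of the livers both genes were low or high together, from wild-type replicate 4 at the bottom of both to wild-type replicates 1 and 2 and Tgfbr2+/- replicate 4 at the top. Tgfbr2+/- replicate 5 went against this, with the highest Apoa4 and the lowest Apoc3. Without it r was 0.94, with its sign turned 0.63, and without the 2 livers farthest from the median of Apoa4 0.93, whereas without wild-type replicate 4 and with Tgfbr2+/- replicate 5 kept it was -0.0063. This pair was singled out after its values were seen, so these are descriptions with no p.

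**Figure D3:**
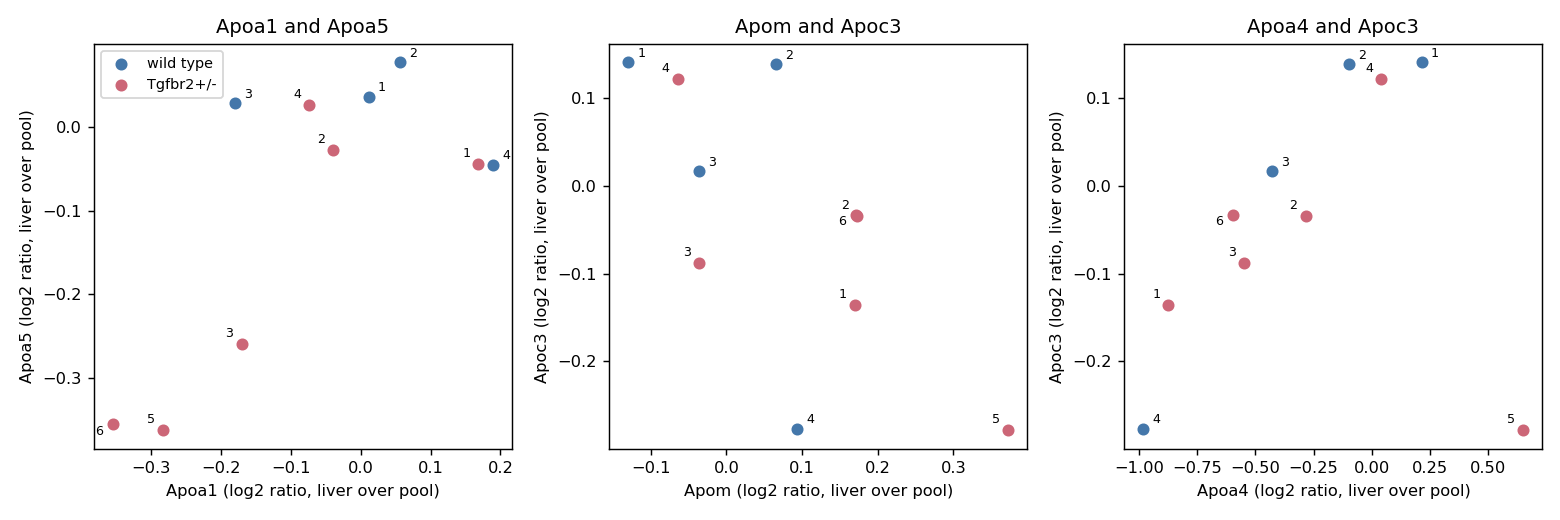
Log2 ratios over the pool of 3 pairs of apolipoprotein genes in the 10 livers, with Apoa1 against Apoa5, Apom against Apoc3 and Apoa4 against Apoc3. Points are libraries with their replicate numbers, blue for wild type and red for Tgfbr2+/-. Apoa5 is low where Apoa1 is lowest, Apoc3 is lower where Apom is higher, and Apoa4 and Apoc3 are low or high together except in Tgfbr2+/- replicate 5 at the lower right.

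Among all genes, those most like Apoa5 over the 10 livers by Pearson's r were the metallothionein Mt3 (0.974), the pyruvate dehydrogenase kinase Pdk2 (0.932), Acox2 of peroxisomal side chain oxidation of bile acids (0.924), the mitochondrial ribosomal protein gene Mrpl27 (0.922) and the tubulin gene Tuba1c (0.916). Pdk2 differed between the groups by -0.23 and Acox2 by -0.21, of which the former had an unadjusted limma p under 0.05. Those most like Apoa4 were the olfactory receptor gene Olfr1442 (0.992), Nop16 of ribosome assembly (0.935), the laminin gene Lamc1 (0.930), Antxr2 (0.908) and Cpne4 (0.908). Pon1, whose product paraoxonase travels on high density lipoprotein with the Apoa1 protein, had an r of 0.919 with Apoa1, rank 8 among all genes, and was named after its value was seen. Over the 10 livers Mt3, Mrpl27, Nop16 and Cpne4 had SDs of 0.074, 0.078, 0.091 and 0.061, under the median SD of all genes (0.107). The other genes named here lay above it. All these correlations are picks from those with all other genes, over 10 livers that share the pool, and are given without a test.

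Of other apolipoprotein genes 12 of 13 were measured, 8 with positive and 4 with negative differences (median 0.03), and 0 passed over all genes by limma. The largest was that of Apol9b at 0.57 ± 0.18 (SE, limma adjusted p = 0.718). Its near copy Apol9a stood at 0.39 ± 0.15 (SE, adjusted p = 0.804), and the 2 share much of their sequence, so their probes may not tell them apart. These were the 2 of 12 at an unadjusted p under 0.05. Apod, of small lipid transport, differed by 0.13 ± 0.08 (SE, adjusted p = 0.919).

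The genes that assemble and secrete lipoprotein particles, 18 of 20 measured, had 10 positive and 8 negative differences, a median of 0.003 and none at an unadjusted p under 0.05 by limma. P4hb, the shared subunit of the microsomal transfer protein that loads lipid onto the B protein, differed by -0.13 ± 0.07, Stx5a of vesicle transport by 0.07 ± 0.05 and the sorting receptor Sort1 by 0.12 ± 0.09 (SE). For the enzymes and inhibitors that remodel particles in plasma, 7 of 16 differences were positive, with a median of -0.03. Furin, the protease that cleaves proteins of the lipase system, was the 1 at an unadjusted p under 0.05 by limma (-0.25 ± 0.09, SE, adjusted p = 0.767). Lcat, the enzyme that the Apoa1 protein activates, differed by -0.10 ± 0.06 and Bmp1, which cleaves the Apoa1 precursor, by -0.13 ± 0.08 (SE).

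On the uptake side 7 of 17 measured receptor genes had positive differences, with a median of -0.02. Pdzk1, the adaptor that holds the high density lipoprotein receptor at the hepatocyte surface, differed by 0.19 ± 0.05 (SE, limma adjusted p = 0.585), the 1 of 17 at an unadjusted p under 0.05. Its receptor Scarb1, named because Pdzk1 acts on it, differed by -0.04 ± 0.11 (SE). Stab2, a scavenger receptor of sinusoidal endothelium, was lower in all 6 heterozygous livers than in any wild-type liver (-0.08 ± 0.04, SE, adjusted p = 0.913). The groups did not overlap in 1.08% of all genes. Stab2 is also 1 of 10 endothelial markers, of which 7 had positive and 3 negative differences (median 0.03), so it does not stand for that list. Cubn differed by 0.27 ± 0.14 (SE). Of 10 cholesterol efflux genes 5 differences were positive, with a median of 0.02 and 2 at an unadjusted p under 0.05 by limma. These were the exporter Abcg1 (0.31 ± 0.10, SE, adjusted p = 0.704) and the lysosomal cholesterol carrier Npc2 (0.13 ± 0.06, SE, adjusted p = 0.900), the latter ratio higher in all 6 heterozygous livers than in any wild-type liver. Stard3 differed by 0.17 ± 0.08 (SE). Abcg1 and Npc2 are also genes of macrophages, whose markers were higher in the same libraries, and the part of that shift was not tested.

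Among 30 measured regulators of apolipoprotein transcription 14 had positive and 16 negative differences, with a median of -0.01. At an unadjusted p under 0.05 by limma there were 3, all positive and none passing over all genes (adjusted p = 0.732 for each). They were Nr0b2, the small repressor of nuclear receptors (0.44 ± 0.14, SE), the forkhead factor Foxa3 (0.27 ± 0.09, SE) and Ppara, the fatty acid receptor (0.18 ± 0.06, SE). Hnf4a, a main activator of apolipoprotein genes in liver, differed by 0.06 ± 0.05 (SE), and Smad3 and Smad4, named as downstream factors of the Tgfbr2 receptor, by -0.07 ± 0.06 and 0.02 ± 0.05 (SE).

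**Figure D4:**
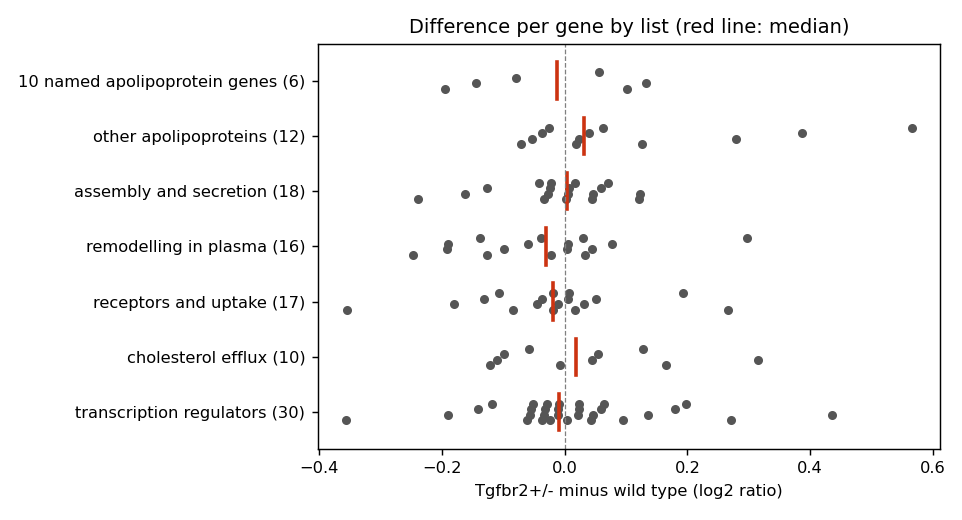
Difference between the groups in log2 ratio for each measured gene (grey points) of the apolipoprotein genes and 6 lists of lipoprotein genes, with the number measured in brackets and the list's median as a red line. The medians lie between -0.03 and 0.03, and no gene shown passed the test over all genes.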

How the data were processed

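Total RNA of 10 mouse livers was profiled on 2-colour arrays against a wild-type pool, with dye swap per the series' design text. The values are the deposited log10 ratios of 23438 probes; the base was inferred from 8 values at exactly 2 or -2, and column medians lay at 0.0013 to 0.0047, so columns are centred. Scanner software, background correction, normalization and whether a column joins swapped arrays are not given in the sources used here. Direction stays unknown beyond what the titles' wording makes likely.

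Values were multiplied by 3.3219 to log2 and averaged per symbol of the platform annotation. Of the probes 17726 have 1 symbol, 50 several and 5662 none; only those with 1 were used, leaving 16383 genes. The groups were compared with limma 3.58.1 (R 4.3.3; lmFit, eBayes), Benjamini-Hochberg over all genes, threshold 0.05, both groups in 1 fit without a block, and single genes also by an exact two-sided permutation test over 210 groupings. Correlations used 100000 resamples. Signal depth is not in the files, so the number of arrays limits the precision. The libraries are not stated to be separate litters or cultures, and p-values measure the spread between these samples.

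All 10 apolipoprotein genes are named. From each list of lipoprotein genes, regulators included, every gene past the threshold is named, otherwise 3 measured genes with the smallest unadjusted p. From the fasting and acute phase lists only the gene at an unadjusted p under 0.05 is named, and from the Y-linked list each measured gene. The clock, sex-biased and cell type lists are summarized or left out, without naming their genes by this rule. Likeness is given as the 5 genes of highest Pearson r to the member with the smallest p and to that with the largest SD. Apoc2, Hnf4a, Moxd1, Pon1, Scarb1, Smad3 and Smad4 were named outside these rules, after their values were seen. The genes and lists were chosen with earlier results of these data known. Promoter windows are RefSeq, GRCm38.p6, present for 5 of the 6 measured genes. Values of the lists are for the columns as deposited. The code was tested on simulated data with independent libraries, without a shared pool or a reversed column. Its outcome for differences of the size seen here is not given.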

Additional observations from a re-analysis of the deposited data

How the results depend on the processing

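Over 22 alternatives for each of 6 genes, 122 of 132 differences kept their direction, 10 turned and 0 passed over all genes. Several alternatives could not change a difference, so their agreement was fixed in advance. Each gene has 1 probe, so a fit on probes or on the probe of largest SD gave the same difference. Setting values at the limit to missing touched 0 values of these genes. The robust form of limma and the exact permutation test change only the p-value. Apoa1, Apoa5 and Apom kept theirs throughout, Apoa1 between -0.21 and -0.04 (-0.05 with the replicate block), Apom between 0.0085 and 0.17 (0.06 with the block) and Apoa5 between -0.23 and -0.07 (-0.10 with the block) with an unadjusted p under 0.05 in 11 of 22. Those 11 include alternatives that left the Apoa5 difference unchanged, and the comparison with the pool alone. Apoa4 turned with array weights (-0.11), the replicate block (-0.092), Tgfbr2+/- replicate 5 turned in sign (-0.16) and Tgfbr2+/- set against the pool (-0.27), and ran from -0.16 to 0.23 with 1 library left out. Apob was -0.023 against the pool and -0.049 to 0.22 with 1 left out, the low end without wild-type replicate 4. Apoc3 was 0.013 with Tgfbr2+/- replicate 5 turned, -0.04 with the block and -0.17 to -0.03 with 1 left out. Apolipoprotein genes at an unadjusted p under 0.05 numbered 0 with array weights, either column turned or the replicate block, 2 against the pool and 0 to 2 with 1 left out. Over all genes that count was 584 and 510 on turning wild-type replicate 1 or Tgfbr2+/- replicate 5, 1518 with the replicate block, 2998 against the pool and 582 to 1255 with 1 left out, the low end without wild-type replicate 1. Genes passing the adjusted threshold were 2 against the pool and 0 to 10 with 1 left out, the 10 without Tgfbr2+/- replicate 3. The count of positive apolipoprotein differences was 1 against the pool and 1 to 3 with 1 left out, and their median -0.10 and -0.13 to 0.034, both low ends being those without wild-type replicate 4. The cause of these changes was not tested.

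Replicate numbers 1 to 4 occur in both groups, and the deviations of same-numbered libraries from their group means correlated at r of 0.0871, 0.0916, 0.302 and 0.00722, and 3 of 4 wild-type libraries were closest to their own number, a hint from the data only. The samples were not treated as paired. The precision is limited by 10 arrays, no detection values and 1 probe a gene, and a probe's match to its transcript was not tested. The r without single libraries was added after seeing the data.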
